A study of Mus musculus with 4 samples.

Results

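KMT9beta, the product of Trmt112, is the partner subunit of the methyltransferase KMT9, and the regions described here are the sites in introns where its ChIP-seq peak list has an entry and the lists of the other subunit and of the histone mark have none. Members were chosen by position and by the absence of overlap between deposited peak lists. A KMT9beta peak on chromosomes 1 to 19 was kept when its midpoint lay in a gene but in no exon, when no part of it reached within 1 kb of the start of a protein-coding transcript, and when it shared no base with a KMT9alpha peak or a peak of histone H4 monomethylated at lysine 12 (H4K12me1). This left 24560 of the 90473 deposited KMT9beta peaks, which is 27.3% of the 89936 on these chromosomes. Chromatin came from organoids of a mouse colorectal tumour (clone 3, passage 14) raised by the carcinogen azoxymethane together with dextran sulfate sodium, which injures the colon lining, with 1 library each for KMT9alpha, KMT9beta and H4K12me1. An input library is not analysed here. All 3 libraries are labelled with the same clone and passage, the genotype label reads NA, and the treatment text names tamoxifen and vehicle without assigning either, so no treatment was compared. Because the culture is 1 clone with 1 library per antibody, no value has a replicate check, no p-value was computed, and the intervals given are exact Clopper-Pearson 95% intervals that cover counting error only.

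KMT9 is a heterodimer in which KMT9alpha, encoded by N6amt1, holds the catalytic site and KMT9beta stabilises it, and together they write H4K12me1, a mark known mainly from promoters. KMT9beta is not devoted to this enzyme: as TRMT112 it also serves other methyltransferases that act on transfer RNA, ribosomal RNA and a translation release factor. A peak of KMT9beta alone in a list therefore does not by itself name the complex at the site, and a missing partner peak means only that no peak of that library was listed.

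The 5 members with the highest deposited scores are shown first, because they show 2 kinds of sequence. Each run is the central 300 bp of the peak on the plus strand of GRCm38.p6, the assembly behind mm10. In the first run the capitals mark a transfer RNA gene, n-TAcgc8, and in the other 4 they mark CpG dinucleotides.
4930555B11Rik, chr2:57181975-57182274: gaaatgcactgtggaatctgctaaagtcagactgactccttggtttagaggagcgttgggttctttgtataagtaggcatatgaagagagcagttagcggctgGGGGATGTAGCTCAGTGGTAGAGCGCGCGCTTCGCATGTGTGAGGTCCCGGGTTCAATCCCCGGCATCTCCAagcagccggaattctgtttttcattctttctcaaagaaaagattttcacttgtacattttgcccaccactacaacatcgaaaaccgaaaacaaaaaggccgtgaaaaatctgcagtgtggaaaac
Sept9, chr11:117313292-117313591: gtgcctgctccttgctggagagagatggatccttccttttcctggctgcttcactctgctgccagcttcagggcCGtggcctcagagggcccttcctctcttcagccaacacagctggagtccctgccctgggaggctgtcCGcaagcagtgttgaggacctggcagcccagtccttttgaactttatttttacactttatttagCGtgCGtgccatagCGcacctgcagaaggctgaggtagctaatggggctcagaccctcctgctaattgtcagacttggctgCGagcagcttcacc
Kank1, chr19:25431556-25431855: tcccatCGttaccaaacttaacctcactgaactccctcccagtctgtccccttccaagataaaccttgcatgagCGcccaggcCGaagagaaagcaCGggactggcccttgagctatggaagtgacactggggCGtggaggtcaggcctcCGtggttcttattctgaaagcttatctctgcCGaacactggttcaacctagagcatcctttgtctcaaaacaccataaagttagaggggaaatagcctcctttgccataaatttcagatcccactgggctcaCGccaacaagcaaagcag
Trim7, chr11:48834032-48834331: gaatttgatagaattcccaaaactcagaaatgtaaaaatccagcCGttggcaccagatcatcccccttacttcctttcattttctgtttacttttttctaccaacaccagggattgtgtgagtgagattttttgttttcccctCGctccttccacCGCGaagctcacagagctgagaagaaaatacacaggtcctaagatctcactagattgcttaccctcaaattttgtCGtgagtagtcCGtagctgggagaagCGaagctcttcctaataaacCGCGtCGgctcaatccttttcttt
Fam222a, chr5:114576397-114576696: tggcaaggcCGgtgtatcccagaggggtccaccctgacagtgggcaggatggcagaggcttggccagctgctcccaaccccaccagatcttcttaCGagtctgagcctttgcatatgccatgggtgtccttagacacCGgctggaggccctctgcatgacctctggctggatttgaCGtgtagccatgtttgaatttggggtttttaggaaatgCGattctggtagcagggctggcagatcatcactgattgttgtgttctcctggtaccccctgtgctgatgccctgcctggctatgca

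The Sept9, Kank1 and Fam222a sites lay within the range of GC content that holds 90% of the members, 47.0% to 60.3%. Their 300 bp were 56.7%, 51.0% and 56.0% GC and held 6, 8 and 5 CpG dinucleotides, and their peaks were broad, at 4605, 3918 and 3904 bp. Sept9, which encodes a septin of the cytoskeleton, had this peak in intron 3 with a score of 711.5, and Kank1, an adaptor at focal adhesions, had its peak in intron 12 with 617.6. The Fam222a peak lay in intron 1 with a score of 477.7. The sites in 4930555B11Rik and Trim7 were different: they were narrower than those 3 (984 and 1038 bp, where the median of all members is 874 bp), less rich in GC (46.7% and 43.3%) and held 12 and 10 CpG dinucleotides.

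Both of those sites lay on transfer RNA genes, which RNA polymerase III transcribes and which the gene annotation used for the rule does not list. The peak with the highest score of all members, 742.9 (chr2:57181633-57182616), covered n-TAcgc8 and n-TGgcc8, and the middle of n-TAcgc8 lay 11 bp from the middle of the peak. It also reached over the start of its host, the long non-coding RNA gene 4930555B11Rik, so that it counts as intronic only by its midpoint. The Trim7 peak (chr11:48833663-48834700), the fourth in the order of scores with 486.9, covered n-TKctt10 and n-TAtgc9, which flank the 300 bp shown. In all, 7 members overlapped a transfer RNA gene of RefSeq. The hosts of the other 5 and their scores were Gm11292 (238.5), Gm11280 (177.6), Gm16630 (58.7), Vac14 (55.3) and Gm17575 (54.5). The first pair lies on chromosome 13, and the Gm11280 peak covered 2 transfer RNA genes, n-TDgtc12 and n-TSaga8.

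This observation was made after the scores had been seen, and the 7 sites are 0.0285% of the members. Across the whole KMT9beta list, 194 of 391 transfer RNA genes (49.6%) carried a peak, against 98 (25.1%) in the KMT9alpha list and 54 (13.8%) in the H4K12me1 list. Sequencing depth is unknown and the lists differ in size, so these shares do not rank the antibodies. The KMT9beta peaks on transfer RNA genes had a median score of 307.2, against 87.1 for the list as a whole. Transfer RNA genes have near-identical copies that can share reads, so which copy carried the signal is uncertain.

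Most members were weak entries of their list. Their median score was 72.9 (quartiles 59.1 and 98.2) where the lowest score in the list is 50.0, and their median width was 874 bp. Intronic KMT9beta peaks that overlapped only KMT9alpha (1524) or only H4K12me1 (8085) had medians of 99.9 and 99.4, and those that overlapped both (2037) had 175.9 and a width of 1706 bp. With the list divided by score into 4 classes of equal size, members made up 82.8% of the intronic peaks outside promoters in the lowest class and 35.3% in the highest. Since wide and strong peaks overlap other lists more readily, score and width were tied to the rule and are given as a description. Intergenic KMT9beta peaks without partners, 17556 in number, were much like the members, with a median score of 70.5 and a width of 839 bp.

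Partner peaks were often not far away. The nearest H4K12me1 peak lay at a median of 4826 bp and the nearest KMT9alpha peak at 15163 bp, and 19.3% of members had either within 1 kb. At the edge of the rule, the 427 members with a partner peak 100 bp or less away had a median score of 80.6, and the 382 intronic peaks that shared 100 bp or less with a partner peak had 84.1. Another KMT9beta peak lay within 5 kb of 66.6% of members, of 65.6% of all KMT9beta peaks and of 76.6% to 80.9% of intronic peaks in the 3 partnered classes.

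Hosts were the next question. Each member was given 1 host, a protein-coding gene before a long non-coding one and then the longest. Protein-coding genes hosted 22132 members (90.1%, 89.7 to 90.5), long non-coding genes 2241 and other genes 187. Of 17845 protein-coding genes with intron outside promoters, 7055 hosted a member, which is 39.5%. Members were spread thinly over them. There were 3173 hosts with a single member, the median was 2, and the 381 hosts with 10 or more held 29.6% of the members in protein-coding genes.

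Long genes had more chances to be hosts. The median total intron of a gene, outside exons and promoters, was 35.98 kb in hosts and 7.65 kb in the other genes. With genes in 4 equal classes by this total, the share that hosted a member was 8.18% in the shortest class. It was 31.2% and 48.8% in the middle classes and 70.03% in the longest. Density went the other way at the long end. In the same order it was 42.6, 47.9, 40.1 and 21.7 members per Mb of intron.

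Of the 10 genes with the most members, the first and the second have very long annotations that span shorter genes. Gm20388 is annotated over 4.44 Mb of chromosome 8 and held 480 members, 471 of them in its intron 1. Of the 480, 214 lay inside 47 shorter protein-coding genes, Gse1 above all with 40, and 266 lay in no shorter one. Fgfr2, a receptor for fibroblast growth factors, is annotated over 2.96 Mb and was given 100 members, of which 8 lay in the introns of its reference transcript and 58 inside 13 shorter genes. With the shortest protein-coding gene taken as the host, 38.8% of genes hosted a member.

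The other 8 were large single genes, and at 7 of them the promoter carried all 3 peaks. Of all protein-coding genes with introns 39.2% carried all 3, and the share was not computed for genes of like length. Camta1, a calmodulin-binding transcription factor gene, held 58 members with scores from 50.6 to 228.1 (median 84.2), and Agap1, which encodes a regulator of endosomal ARF GTPases, held 53 with scores from 50.1 to 195.2 (median 81.4). Sorcs2, a sorting receptor gene, held 49, and the neuronal splicing factor gene Rbfox3 held 48. Nav2, whose product binds microtubules in growing neurons, held 46, and the spindle checkpoint gene Mad1l1 and the transcription factor gene Zfhx3 held 39 each. Cdh23, a cadherin gene of sensory hair cells, held 42 with a promoter peak of KMT9alpha only. These genes are not hosts of partner-free peaks alone. At Sorcs2 33 further intronic KMT9beta peaks overlapped a partner and at Camta1 21, against 6 at Cdh23. Per length the order was another: Camta1, with 892.1 kb of intron, had 6.50 members per 100 kb, Zfhx3, with 983.6 kb, had 3.97, and Sorcs2, with 366.2 kb, had 13.4.

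**Figure D1:**
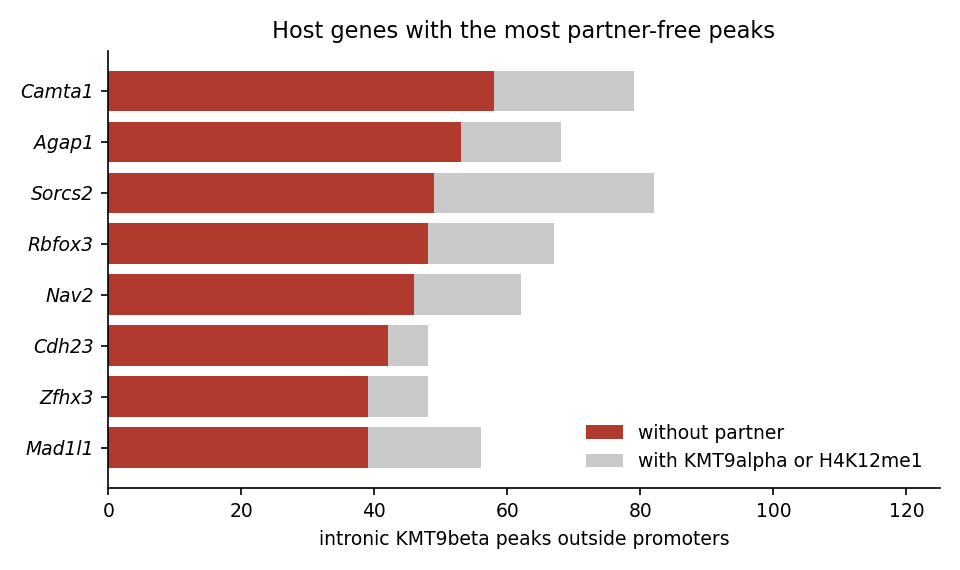
Intronic KMT9beta peaks outside promoters (horizontal axis, number of peaks) in 8 of the 10 genes with the most members, leaving out the read-through annotations Gm20388 and Fgfr2; red is peaks without a partner and grey is peaks that overlap KMT9alpha or H4K12me1. Camta1 has the most without a partner, 58, while Sorcs2 has the most with one, 33.

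Per length of intron the leading hosts were short genes with 3 to 5 members. Arl8a, a lysosomal GTPase gene, had 3 members in 4.93 kb of intron (60.8 per 100 kb), with scores from 57.3 to 129.6 and all 3 peaks at its promoter. Col1a1, which encodes a chain of type I collagen and is a gene of fibroblasts, had 5 members (52.8 per 100 kb) with scores from 54.97 to 140.7. The highest of these lay in intron 43. Its promoter carried KMT9beta alone. Zfyve21 had 5 members at 51.6 per 100 kb, and Gm44502, Hbegf, Aoc3, Polm, Ttyh1, Slc25a29 and Pla2g1b had 3 each, at 44.1 to 51.5 per 100 kb. None of these 10 genes had an intronic KMT9beta peak with a partner outside its promoter. With 3 to 5 peaks a gene, the order among them was not tested.

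Under this rule, intron rank did not single out the first intron. Intron 1 held 24.1% (23.5 to 24.6) of the members in protein-coding hosts and 23.0% of the intron length, so the density was 26.8 per Mb there and 25.8 per Mb in later introns, a ratio of 1.04. The densities were 24.3 to 24.9 per Mb in introns 2 to 5 and 25.7 to 28.8 per Mb in introns 6 to 10. In introns 11 and later the density was 26.7 per Mb. For intronic KMT9beta peaks with only KMT9alpha, only H4K12me1 or both, the same ratio was 1.36, 1.15 and 1.25. These partnered ratios keep Gm20388, which held 325 partnered intronic peaks, and were not recomputed without it. The ratio of 1.04 depended on the choice of hosts: without Gm20388 and Fgfr2 it was 0.968, and with the shortest gene as the host it was 1.01. Against the number that local GC content gives, described further on, intron 1 held 0.905 times as many members and introns 4 and later 1.14 times. The rule can lower both values for intron 1, since a wide peak just outside the promoter window reaches it and was left out. The size of this effect was not tested. Within an intron the members were slightly more frequent toward the 3′ end, with 19.2% (18.7 to 19.8), 19.2%, 20.03%, 19.9% and 21.6% (21.1 to 22.2) in 5 equal stretches from the 5′ end. The rule itself lowers the first stretch, since peaks near a start at the 5′ end of intron 1 were left out. These shares were not set against the intron bases that the rule leaves, so a lean toward the 3′ end cannot be read from them. They fell in 13936 introns of the reference transcripts, of which 2937 held more than 1.

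**Figure D2:**
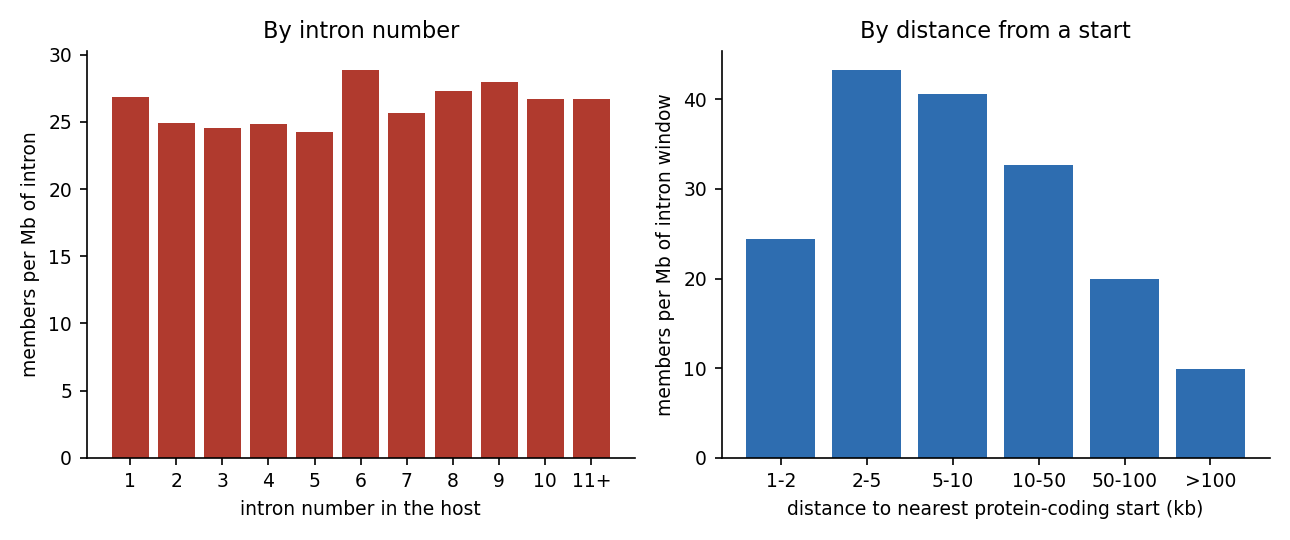
Members per Mb (vertical axes) by intron number in the host's reference transcript (left, protein-coding hosts) and by distance from the peak's midpoint to the nearest start of a protein-coding transcript (right, kb). The left panel stays between 24.3 and 28.8 per Mb, and the right panel falls from 43.3 per Mb at 2 to 5 kb to 9.93 per Mb beyond 100 kb.

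Distance from a start mattered more than intron number. The density was 43.3 per Mb from 2 to 5 kb from the nearest coding start, 40.6 from 5 to 10 kb, 32.6 from 10 to 50 kb and 9.93 beyond 100 kb. From 50 to 100 kb there were 3072 members in 153.6 Mb. The 24.5 per Mb between 1 and 2 kb is lowered by the rule itself, since a wide peak with its midpoint there reaches the promoter window. Partnered intronic peaks fell in the same way. Those with H4K12me1 only went from 15.0 per Mb at 2 to 5 kb to 2.53 beyond 100 kb. Local GC content moves with distance as well. Set against the number that GC content alone gives, members were 1.21 times as many at 2 to 5 kb and 0.662 times as many beyond 100 kb.

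The promoters of the hosts were compared next, a readout the rule did not use for the same bases but which comes from the same 3 lists. Hosts carried a promoter peak of KMT9beta in 84.6% of cases (83.7 to 85.4), of KMT9alpha in 68.8% (67.7 to 69.9) and of H4K12me1 in 61.9% (60.7 to 63.0). Over all protein-coding genes with introns the shares were 70.7%, 58.8% and 49.1%. All 3 stood at 49.8% (48.7 to 51.0) of hosts and at 39.2% of all such genes, and none at 11.5% (10.8 to 12.2) of hosts and 24.7% of all such genes. The full set was thus the most frequent promoter state among hosts. Hosts were also longer than other genes, with a median total intron of 35.98 kb against 7.65 kb. Genes with all 3 promoter peaks had a larger median total intron than genes with none. These shares were not computed for genes of like length, so the difference from all genes is not read as a trait of hosts.

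Counted by members and set against intron length, the same order appeared. Genes with all 3 promoter peaks held 59.1% of members (58.4 to 59.7) in 40.7% of the intron length, and genes with none held 6.69% (6.36 to 7.02) in 20.7%. Their densities were 37.4 and 8.32 per Mb, a ratio of 4.49 (4.25 to 4.74). Promoters with KMT9beta and H4K12me1 but no KMT9alpha went with 30.3 per Mb, those with both subunits and no mark with 24.2, those with KMT9beta alone with 18.9, those with KMT9alpha alone with 17.5, and those with H4K12me1 alone with 11.2. Intronic KMT9beta peaks with H4K12me1 only stood at 2.10 per Mb with none and 13.7 per Mb with all 3. The members' own score hardly moved, with a median of 68.1 in genes with no promoter peak and 74.96 in genes with all 3.

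Examples of 4 of the 8 promoter states follow. Ephb2, which encodes a receptor that sorts cells along the crypt and is a Wnt target, had a peak of each library at its promoter (KMT9beta score 656.5) and hosted 28 members, the strongest of them in intron 1 (chr4:136778873-136780921) with a score of 291.4, at 25890 bp from KMT9alpha and 2473 bp from H4K12me1. Tcf7l2, the main TCF factor of the intestinal epithelium, also had all 3 at the promoter and hosted 19 members with scores from 51.8 to 98.2 beside 28 partnered peaks. Tcf7l1, a TCF family repressor, had both subunits without the mark and 14 members. Tenm4, an adhesion receptor gene of neurons, had H4K12me1 alone and 16 members in 705.9 kb of intron. Pla2g1b and Gm44502 had no promoter peak at all and 3 members each.

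The members lay in sequence richer in GC than introns as a whole. The central 300 bp of members had a median GC content of 53.3%, against 42.3% for all 3165743 windows of 300 bp tiled over introns outside exons and promoters. The median CpG observed to expected ratio was 0.228 against 0.156, and mean CpG number was 5.40 per window. All intron windows had 2.45, and windows weighted to the members' GC content had 4.55. Soft-masked repeats took 19.2% of the members' bases, against 24.3% of windows at the same GC content.

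The dependence on GC was steep. Windows at 36 to 38% GC held 6 members in 81.9 Mb, which is 0.0733 per Mb. The density was 4.54 per Mb at 44 to 46%, 73.5 at 50 to 52% and 389.4 at 58 to 60%, and above that it levelled off. Windows of at least 50% GC were 13.5% of all intron windows and held 83.1% of the members. The same was true of the other lists. Intronic H4K12me1 peaks without KMT9beta (12516) had a median GC content of 52.7% and rose from 0.0977 per Mb at 36 to 38% to 140.6 at 58 to 60%, and intronic KMT9alpha peaks without KMT9beta (2687) had 52.0%. KMT9beta peaks with H4K12me1 only had 54.7%. GC-rich sequence was thus seen under intronic peaks of all 3 lists. Fragment recovery and sequencing also depend on GC content, the deposited lists do not show how the authors dealt with this, and the input is not analysed here, so its part in the result was not tested.

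**Figure D3:**
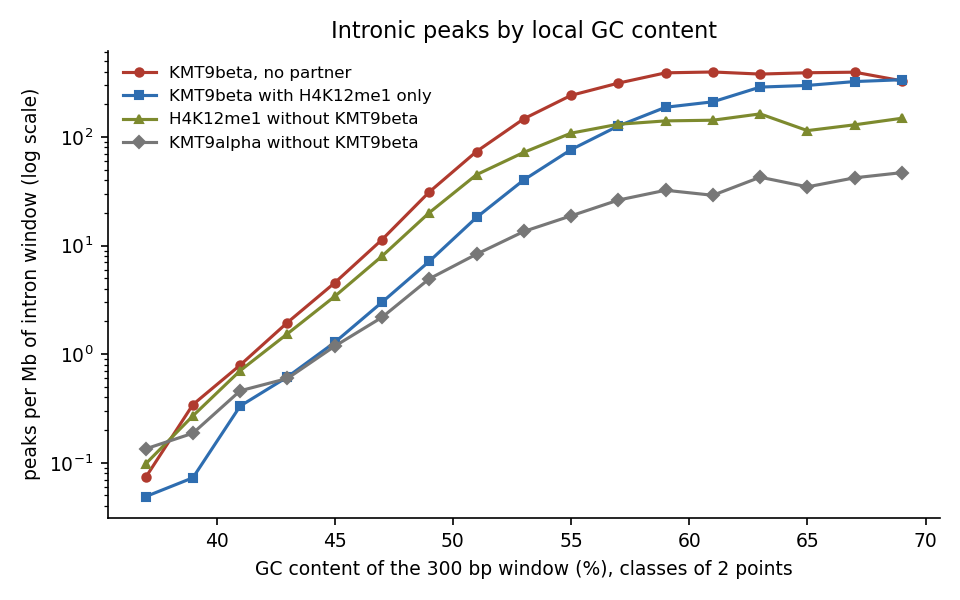
Intronic peaks outside promoters per Mb of intron window (vertical axis, log scale) by GC content of the 300 bp window around the midpoint (horizontal axis, classes of 2 percentage points, 36 to 70%); each line is a class of peaks. Members rise from 0.0733 per Mb at 36 to 38% to 389.4 at 58 to 60%, and the H4K12me1 peaks without KMT9beta rise alongside, to 140.6.

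Within classes of equal GC content the difference between promoter states was smaller at high GC. Genes with all 3 promoter peaks had 24.2 members per Mb and genes with none 7.14 in windows of 45 to 50% GC, a ratio of 3.39. The ratio was 2.13 at 50 to 55% and 1.12 at 55% or more, where the densities were 330.1 and 294.5 per Mb. With both weighted to the GC content of all intron windows, the densities were 31.7 and 17.8 per Mb, a ratio of 1.79 in place of 4.49. Against the number given by GC classes of 2 points, genes with all 3 held 1.16 times as many members, genes with both subunits 1.09 times, genes with KMT9beta and the mark 0.930 times and genes with none 0.640 times.

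**Figure D4:**
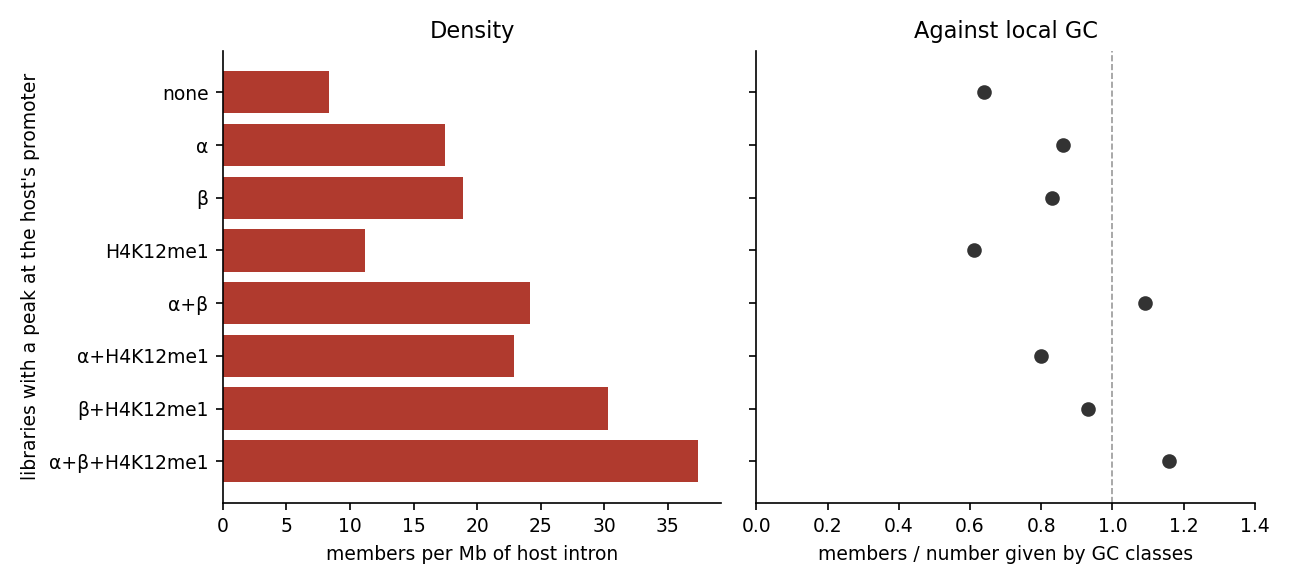
Members by the libraries with a peak at the host's promoter (vertical axis; α is KMT9alpha, β is KMT9beta): density in members per Mb of intron (left) and number of members divided by the number that classes of 2 points of GC content give over all introns (right, dashed line at 1). Density runs from 8.32 per Mb with none to 37.4 with all 3, and the GC-adjusted values run from 0.612 with H4K12me1 alone to 1.16 with all 3.

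Chromosomes differed too. Chromosome 19 had 43.5 members per Mb of intron, chromosome 11 36.6 and chromosome 5 33.3, and chromosome 3 had the fewest at 12.7. Against local GC content chromosome 19 stood apart, with 1204 members where its GC classes gave 697.6, or 1.73 times as many. The other chromosomes lay between 0.814 times (chromosome 13) and 1.23 times (chromosome 1). The number of copies of each chromosome in the organoids was not tested.

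Short motifs of transcription factors were searched on both strands in the central 300 bp. Except for HNF4 and TEAD, they stood nearer to the share in windows of the members' GC content than to that in all windows. The HNF4 motif was in 0.407% of members, 0.386% of all windows and 0.365% at the members' GC content. For the TEAD motif these shares were 15.7%, 15.6% and 16.6%. The TCF/LEF motif (TTCAAAG or ATCAAAG), through which Wnt signalling acts, was found in 7.81% of members (7.47 to 8.15), 13.1% of all intron windows and 7.29% of windows weighted to the members' GC content. For the AP-1 motif TGANTCA the shares were 8.08%, 8.99% and 7.57%, and for the GC box GGGCGG they were 9.29%, 2.67% and 9.56%. The motifs AGATAA of GATA factors and TTTATGG or TTTATTG of CDX factors, both families of gut transcription factors, stood at 8.23% and 4.76% of members against 8.80% and 4.68% at the same GC content. The E-box CACGTG, which MYC and other factors can bind, was in 6.38% of members (6.08 to 6.69) against 5.04% at the same GC content. It was in 5.84% of intronic peaks with H4K12me1 only. Runs of 6 or more GA units stood at 0.647% of members (0.551 to 0.756) against 2.14%. Such runs were also rare in intergenic KMT9beta peaks without partners (0.689%).

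Lists of genes tied to the tissue differed more in density than in the share of hosts. Wnt pathway genes hosted members at 29 of 40 genes (72.5%) with 46.7 members per Mb of intron, and intestinal stem cell genes at 17 of 25 (68.0%) with 48.4 per Mb, where all protein-coding genes with introns stood at 39.5% and 25.7 per Mb. Genes of both lists were long, with a median total intron of 45.4 and 57.1 kb against 15.3 kb for all. Of all genes in the longest class by intron length, from 43.7 kb, 70.03% were hosts, so the shares of hosts are not read as a trait of these lists. The genes with the most were Tcf7l2 and Tcf7l1 for the Wnt list, and Ephb2 and Lrig1, a negative regulator of receptor tyrosine kinases in crypt stem cells, with 28 and 8 for the other. Set against local GC content these lists held 1.16 and 1.32 times as many members (128 and 78 members). This was not particular to them, since the value was 1.48 for chromatin writers and erasers (85 members). For enterocyte and colonocyte genes it was 1.61, which rests on 28 members where GC classes gave 17.4. The 1.65 for MYC and nucleolar genes rests on 20 members where GC classes gave 12.1, too few to be read. The value was 1.04 for TGF-beta and BMP genes, 0.970 for actin, adhesion and polarity genes, 0.962 for gut transcription factors and 0.910 for receptor tyrosine kinase and RAS genes. TGF-beta and BMP genes hosted members at 18 of 26 with 33.2 per Mb, led by Smad6, an inhibitory SMAD, and Smurf1, a ubiquitin ligase, with 12 each, and chromatin writers and erasers at 24 of 37 with 24.5 per Mb, led by Hdac4 (16) and Dnmt3a (11).

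Enterocyte and colonocyte genes were hosts at 14 of 25 with 40.04 per Mb, and 4 of the 25 promoters carried all 3 peaks. Over all protein-coding genes with introns, 39.5% were hosts and 39.2% carried all 3. Myo7b, a brush border myosin gene, had 7 members and Anpep, an aminopeptidase gene, had 3. Transcription factors of the gut epithelium were hosts at 13 of 25 with 15.8 per Mb, led by Foxp1 with 19 and Esrrg with 7. Of these, 10 in Foxp1 and 1 in Esrrg lay in the introns of the reference transcript. Receptor tyrosine kinase and RAS genes were hosts at 17 of 31 with 23.4 per Mb. Fgfr2 gave 100 of their 142 members, so this density and the value against GC content rest mostly on its annotation. Neither was computed without it. Igf1r followed with 9. Genes of actin, adhesion and polarity were hosts at 26 of 33, the largest share among the 11 lists, with 18.95 per Mb. Their median total intron was 218.8 kb per gene. Cdh13, an anchored cadherin gene, had 34 members there and Tns3, a focal adhesion gene, had 27.

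Synapse and axon guidance genes showed how far share and density can part. They were hosts at 27 of 36, yet their 35.8 Mb of intron held 88 members, or 2.46 per Mb, and 0.315 times the number given by local GC content. Tenm4 with 16 and Kcnma1, a potassium channel gene, with 9 led them. All 3 peaks stood at 5 of the 36 promoters, against 39.2% over all protein-coding genes with introns. At the other end of the length scale, cytosolic ribosomal protein genes were hosts at 2 of 21, Rpl11 with 3 members and Rpl22 with 1, over 0.0526 Mb of intron. None of the 3 in Rpl11 lay in the introns of its reference transcript. Rpl11 was given 21.73 kb of intron, where the median of the list was 0.851 kb. MYC and nucleolar biogenesis genes were hosts at 9 of 24, led by Rcl1 with 6 and Nop2 with 3. For the last 2 lists 4 and 20 members are too few for a density to be read.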

How the data were processed

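ChIP-seq libraries of KMT9alpha, KMT9beta and H4K12me1 were used, 1 each. The authors' deposited lists give a position and a score per peak. Peak names begin with MACS, per the file contents; the sources used here give neither the caller's version, threshold and control nor what the score means, and scores were used within 1 list only. The labels name STAR, the submitters' processing notes Bowtie2, and both mm10. Depth is unknown, so the precision of the lists cannot be given.

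Genes were those of GENCODE vM21 on GRCm38.p6, and transfer RNA genes those of RefSeq for the same assembly. Promoters were 1 kb either side of starts of protein-coding transcripts; all annotated starts of protein-coding genes, the wording first planned, were an alternative. Overlap was 1 bp or more. Each host had 1 reference transcript, the one with the longest coding sequence. Density is midpoints per Mb of intron outside exons and promoters. Numbers given by GC content apply the members' density per class of 2 GC points over all intron windows to the windows of a group. Named genes were the 10 hosts with the most members, the 10 protein-coding hosts with the most per 100 kb among those with 3 or more, the hosts of the 10 highest scores and 2 genes per list. Dnmbp, Card19, Tnxb, Prr5 and Psmd3, hosts of the remaining highest scores, had 473.4, 434.4, 431.8, 426.9 and 426.9. Members, 11 gene lists and 15 motif families were chosen with earlier results of these data known. Scripts (pandas 2.3.3, numpy 2.4.6 and scipy 1.17.1 under Python 3.11.15) were tested on simulated data.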

Additional observations from a re-analysis of the deposited data

How the results depend on the processing

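There were 24560 members with the settings reported and 18298 to 29957 under 8 alternatives; with KMT9beta peaks at or above the median score there were 8349. The share of members in intron 1 was 23.2% with no partner within 1 kb, 21.2% with promoters of 5 kb, 23.3% at or above the median score, 26.0% with the transcript of the longest span, 25.25% with all annotated starts of protein-coding genes as promoters, 25.2% with those of all genes, and 22.5% without Gm20388 and Fgfr2. The ratio of intron 1 to later introns was 1.08 without chromosome 5 and chromosome 19 and 1.115 with all starts of protein-coding genes, and it turned below 1 with no partner within 1 kb (0.9905), at or above the median score (0.992), without Gm20388 and Fgfr2 (0.968) and against GC classes (0.835), so its direction is not settled.

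Promoter shares are given in the order KMT9beta, H4K12me1, KMT9alpha and all 3. They were 89.1%, 68.5%, 74.1% and 57.1% with no partner within 1 kb, 93.5%, 79.15%, 79.0% and 67.35% with promoters of 5 kb, 92.4%, 74.8%, 76.9% and 63.0% at or above the median score, 89.6%, 68.85%, 74.1% and 57.0% without chromosome 5 and chromosome 19, and 92.1%, 76.5%, 76.8% and 64.1% with all starts of protein-coding genes. Without Gm20388 and Fgfr2 the last 3 were 69.8%, 74.5% and 58.0%. The share of genes that host a member was 35.4%, 41.4% and 20.8% under the first 3 of these, 37.0% with all starts and 38.75% with the shortest host. The ratio of all 3 to none was 3.88, 6.35 and 6.39 under the first 3, 5.12 with all starts and 1.79 at common GC. Median GC content was 53.7% at or above the median score and 51.45% over whole peaks, and the CpG ratio was 0.225 at or above the median score. The causes were not tested. Densities with narrower rules keep the same intron length, except for promoters of 5 kb. The shortest host, all starts, the omission of Gm20388 and Fgfr2, promoters of all genes for intron 1, both GC settings and every alternative of the ratio of all 3 to none were added after seeing the data.

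No paired analysis was possible because no library has a partner in another condition. With 1 library per antibody and unknown depth, a missing partner peak cannot be told apart from one below the authors' threshold.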

Other observations

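The rule let through starts that are not those of protein-coding transcripts, including starts of non-coding transcripts of protein-coding genes. Of the members, 2531 (10.3%, 9.93 to 10.7) reached within 1 kb of such a start. Their median score was 81.8, against 72.3 for the rest, and their median CpG ratio was 0.234 against 0.227. Transfer RNA genes were also overlapped by 34 of the 17556 intergenic KMT9beta peaks without partners, which is 0.194%, against 0.0285% of the members. Of the 38 H4K12me1 peaks and 73 KMT9alpha peaks on transfer RNA genes, the median scores in their own lists were 97.5 and 1249. The medians of the whole lists were 79.9 and 313.9, so higher scores on transfer RNA genes were not particular to KMT9beta.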
